A study of Arabidopsis thaliana with 4 samples.

Results

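The pericentromeres of Arabidopsis thaliana, the gene-poor stretches on both sides of each centromere, held 1935 of the 18340 chromatin regions that were called as peaks in all 4 libraries of a root tip multiome experiment. These members were chosen by position alone. Peaks of the 4 libraries were merged where they overlapped by 1 bp, which gave 27679 regions, and a member had its midpoint on chromosome 1 between 11.5 and 17.7 Mb, on chromosome 2 between 1.1 and 7.2 Mb, on chromosome 3 between 10.3 and 17.3 Mb, on chromosome 4 between 1.5 and 6.3 Mb, or on chromosome 5 between 9.0 and 16.0 Mb. Chromosomes 1 to 5 contributed 406, 429, 418, 245 and 437 members. The other 16405 shared regions lay on the chromosome arms and were the comparison.

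All plants were of the Col-0 genotype, the reference accession, and all nuclei came from 5 mm root tips. Control plants had no added treatment, and stress plants grew on medium with sorbitol, a sugar alcohol that lowers the water potential and thereby imposes osmotic stress. Each condition had 2 libraries, which the study describes as biological replicates. In each nucleus the assay counted RNA molecules and the cuts made by a transposase in open chromatin, so a count in a region stands for accessibility. Plant age and the amount of sorbitol are not in the labels and are not used here.

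Pericentromeric chromatin in this species is packed as heterochromatin. It is rich in transposons and pseudogenes, and carries DNA methylation laid down by enzymes such as MET1 and CMT3, the repressive mark H3K9 dimethylation written by SUVH proteins, and linker histone H1. The centromeres themselves are arrays of a short tandem satellite. Genes embedded in these stretches can still be active and have open promoters, and the pericentromere of chromosome 2 is known for a large insertion of mitochondrial DNA.

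The sequences shown here were chosen because the results turn on them, and all are TAIR10 bases read from the RefSeq assembly, 5′ to 3′. The first is 150 bases of the member with the highest level per kb, chr2:3334072-3334832, on the plus strand. All 761 bases of that member were identical to the mitochondrial genome, so no letter is in capitals, which would mark a difference between the copies.
chr2:3334452-3334601: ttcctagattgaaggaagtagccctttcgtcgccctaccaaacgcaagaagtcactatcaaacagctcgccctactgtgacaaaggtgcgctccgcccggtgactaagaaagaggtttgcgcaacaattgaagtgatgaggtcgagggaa
The next lines show, on the strand in brackets, one unit from each of 3 members that consist of a tandem repeat with the length of the centromere satellite. Capitals mark bases that differ from the first line, 15 of 178 in the chromosome 3 unit and 11 of 178 in the second chromosome 4 unit.
chr4:3951141-3951318 (+): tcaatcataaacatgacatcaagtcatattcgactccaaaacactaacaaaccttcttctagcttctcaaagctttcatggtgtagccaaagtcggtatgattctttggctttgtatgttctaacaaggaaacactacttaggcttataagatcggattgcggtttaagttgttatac
chr4:3953454-3953631 (+): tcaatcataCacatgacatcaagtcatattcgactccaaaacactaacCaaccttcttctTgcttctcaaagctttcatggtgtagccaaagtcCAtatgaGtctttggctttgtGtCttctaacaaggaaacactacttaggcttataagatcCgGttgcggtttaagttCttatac
chr3:13591765-13591942 (-): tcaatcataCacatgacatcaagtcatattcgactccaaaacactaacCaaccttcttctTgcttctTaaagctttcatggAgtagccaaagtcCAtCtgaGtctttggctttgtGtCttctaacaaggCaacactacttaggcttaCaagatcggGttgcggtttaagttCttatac
The last lines give the central 300 bases, on the plus strand, of the 1 member past the test (over the start of AT4G09890), of a member whose gene AT5G26200 had much more RNA under stress, and of the member with the highest level per kb outside the mitochondrial DNA, which lies beside ribosomal RNA genes. Capitals mark matches, on either strand, to short promoter motifs, each of which is spelled out below with its share of regions.
chr4:6217672-6217971: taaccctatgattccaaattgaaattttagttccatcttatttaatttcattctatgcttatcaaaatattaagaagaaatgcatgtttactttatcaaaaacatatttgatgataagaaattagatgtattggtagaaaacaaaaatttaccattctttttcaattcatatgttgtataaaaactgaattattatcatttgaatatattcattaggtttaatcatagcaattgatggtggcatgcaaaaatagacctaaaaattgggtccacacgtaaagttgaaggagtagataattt
chr5:9156937-9157236: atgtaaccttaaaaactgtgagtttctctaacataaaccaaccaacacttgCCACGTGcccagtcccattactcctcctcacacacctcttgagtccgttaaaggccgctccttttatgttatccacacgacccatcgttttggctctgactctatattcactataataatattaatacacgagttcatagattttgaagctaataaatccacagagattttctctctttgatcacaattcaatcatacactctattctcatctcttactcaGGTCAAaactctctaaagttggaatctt
chr3:14201532-14201831: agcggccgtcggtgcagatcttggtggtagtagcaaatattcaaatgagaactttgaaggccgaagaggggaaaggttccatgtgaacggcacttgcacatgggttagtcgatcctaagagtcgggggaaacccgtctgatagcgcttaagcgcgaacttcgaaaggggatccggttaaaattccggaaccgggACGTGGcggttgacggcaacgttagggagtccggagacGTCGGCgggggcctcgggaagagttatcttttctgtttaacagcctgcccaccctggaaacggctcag

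After limits on RNA and peak counts, 1480 and 4767 nuclei were kept in control replicates 1 and 2, and 6564 and 5575 in stress replicates 1 and 2. The libraries carried 11192073, 28111157, 35252513 and 31118001 peak counts in that order. Control replicate 1 stood apart in having the fewest nuclei and the fewest peaks called, 19858 against 24317 to 25001 in the others. Between 14 and 64 barcodes of kept nuclei were shared by a pair of libraries, 0.946% to 1.15% of the smaller one. Doublets were not removed. Root tissue was recognisable, with 57 to 408 nuclei per library carrying at least 2 root hair markers and 123 to 602 at least 2 endodermis markers. In sums over nuclei, fewer nuclei of a type and less accessibility or RNA per nucleus cannot be told apart.

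The members were sparse beside the arms, and so were genes. Outside organelle copies there were 58.4 members per Mb in the intervals and 186 shared regions per Mb on the arms. Protein-coding genes numbered 109 per Mb in the intervals and 273 per Mb on the arms, whereas pseudogenes numbered 121 and 12.1 per Mb. Pseudogenes here and below are all genes that the annotation labels as such. Any transposon genes under that label were not set apart. Per 100 coding genes, the intervals held 53.7 shared regions and the arms 68.2. The share of merged regions that all 4 libraries called was close in the 2 compartments, 64.8% in the intervals and 66.4% on the arms. Interval lengths here include the mitochondrial DNA, which lowers the density given for chromosome 2. Chromosome 2 had 50.8 members per Mb outside that DNA and chromosome 4 had 51 per Mb, so which was lowest is not settled. Chromosome 1 had the highest density, 65.5 per Mb.

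Each pericentromere had a long stretch with no shared region at all. The longest was 1300 kb on chromosome 1 (chr1:14308751-15608740), followed by 586 kb on chromosome 5 (chr5:11025494-11611513), 492 kb on chromosome 3 (chr3:13592467-14084828), 448 kb on chromosome 4 (chr4:2907546-3355929) and 224 kb on chromosome 2 (chr2:3781797-4005833). These gaps held many genes labelled as pseudogenes, 134, 120, 65, 72 and 53 in the same order, beside 12, 11, 5, 9 and 4 coding genes. Since the gaps were defined as empty, a low density near them follows from that definition. That includes the class at 0.25 to 0.5 Mb from the middle of the gap, with 20.8 per Mb, where the chromosome 1 gap leaves that chromosome empty. Beyond all the gaps, the density of shared regions outside organelle copies was 29.8 per Mb at 1 to 1.5 Mb. It was 67.4 per Mb at 1.5 to 2 Mb and 179 per Mb at 4 to 6 Mb. Coding gene starts followed the same course over these last 3 classes, from 58.8 to 117 and 265 per Mb, as the plot of density by distance shows.

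**Figure D1:**
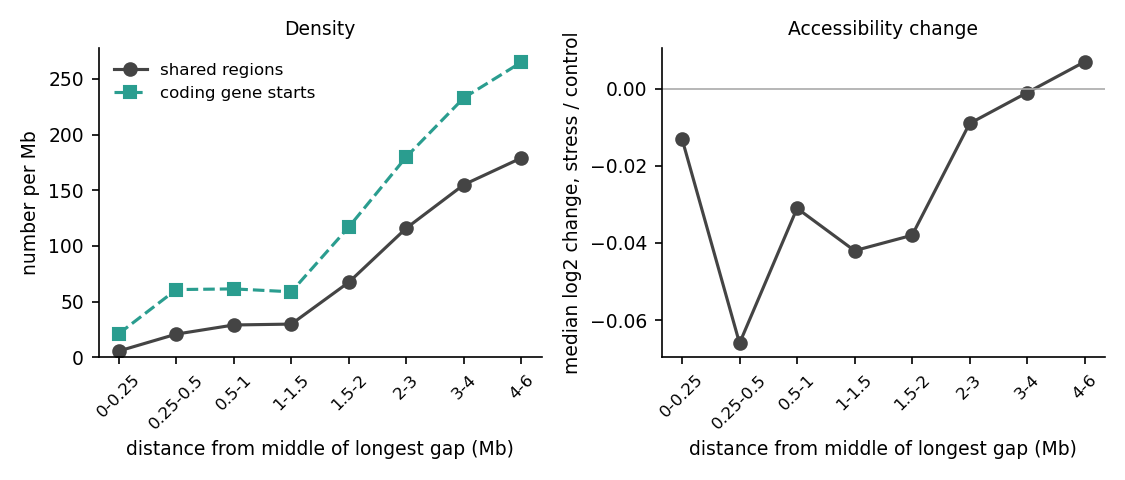
Shared regions outside organelle copies (circles) and coding gene starts (squares) per Mb, left, and the median log2 change in accessibility under stress, right, by distance in Mb from the middle of the longest gap on each chromosome. Density climbs from 20.8 to 179 regions per Mb between 0.25 and 6 Mb, and the median change stays between -0.07 and 0.01. The gaps, empty by definition, lower the density of the classes under 1 Mb.

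Members beside the gaps had 27.3 to 65.3 CPM per kb (counts relative to library size, scaled by edgeR's TMM factors). Over the 1816 members outside the mitochondrial DNA the quartiles were 32 and 59.3. Shared regions within 0.25 Mb of the middle of the gap had a median of 35.2 CPM per kb, and those at 4 to 6 Mb had 51.6. On chromosome 3, the member chr3:14084829-14085771 over the start of AT3G33530 had 28.6 and 29.2 CPM in the control libraries and 31.6 and 29.8 in the stress libraries. Its log2 change was 0.09 ± 0.09 (SE, edgeR adjusted p = 0.634). On chromosome 4, chr4:2906611-2907545 over the start of AT4G05590 had 36.4, 39.8, 38.7 and 38.7 CPM in the same order of libraries. The member over the start of AT5G30490, chr5:11611514-11612386, had 21, 25.5, 25.2 and 23.7 CPM. Control and stress overlapped in the last 2 of these. The member beside the chromosome 2 gap, chr2:4005834-4006635, lay 11800 bp from the nearest coding gene start and had a lower level in both stress libraries (54.9 and 56.2 CPM in control, 49.4 and 48.9 under stress; log2 change -0.18 ± 0.05, edgeR adjusted p = 0.188). With equal numbers of nuclei per library its log2 change was 0.00 (adjusted p = 0.997). Its counterpart on chromosome 1, chr1:15608741-15609619, had 45.3 and 43 CPM in control and 40.1 and 42.5 under stress (-0.09 ± 0.07, adjusted p = 0.522).

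The 1816 members outside the mitochondrial DNA differed from arm regions in level and in what they lay over. Their median level was 37.8 to 38.3 CPM in the 4 libraries, against 50.5 to 51.1 CPM on the arms, so the gap between the compartments was wider than any difference between libraries. Per kb, the medians were 43.1 and 57.8 CPM. Widths were alike, with medians of 899 and 901 bp. A coding gene start lay inside 53% of these members and 64.3% of arm regions, and 40% and 31.2% held no gene start of any kind. Pseudogenes were under 6.44% of these members and 1.58% of arm regions. GC content was 34.1% and 35.3%, and the median share of bases that the assembly masks as repeats or simple sequence was 26.5% and 22.9%. At the interval ends, the 611 members within 0.5 Mb inside had a median of 45.7 CPM per kb and the 894 regions within 0.5 Mb outside had 49.5.

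The promoter motifs searched were found in the members at shares close to, or somewhat under, those of other regions. In the central 300 bases, CACGTG (the G-box) was found in 11.2% of these members and 13.8% of arm regions, with 13.5% over all shared regions. ACGTGG, which shares letters with the G-box, stands in the abscisic acid response element and was found in 14.6% and 15.9% (15.7% over all). The W-box forms TTGACC and TTGACT were found in 16.2% and 24.1% of members (16.7% and 23.3% over all regions). AAACCCTA, the telomere-like motif of ribosomal protein gene promoters, was found in 6.06% of members and 5.99% of all regions. GGGCCCA was found in 2.2% and GCCGAC, the drought response element core, in 4.35% of members, against 3.31% and 4.86% of all regions. Both strands were searched.

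A block of 119 members on chromosome 2 was a copy of the mitochondrial genome. It spanned chr2:3239038-3509765, 270728 bp, all of which aligned to the mitochondrial genome at 99.4% identity in 11 alignments of at least 2000 bases. Of the 119 members, 113 aligned over their full length and 68 were identical to mitochondrial DNA, the lowest identity being 99.52%. They stood out by composition too, with a median GC content of 44.6% and a median masked share of 5.12%. Only 16% held a coding gene start. The block also held 3 stretches that aligned to the chloroplast genome at 95.6% to 97.3% identity, and 4 of the 119 members overlapped one. Outside the block chloroplast DNA matched 0 members, and on the arms 1 shared region matched an organelle genome.

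The 119 members included the 5 members with the highest level per kb, and their level was highest in control replicate 1. Their median level was 242 CPM in control replicate 1, 70.1 in control replicate 2, and 88.3 and 81.8 in the stress libraries. The member printed above, chr2:3334072-3334832, had 1280, 395, 499 and 471 CPM. A further member of the block, chr2:3377606-3378795, had 1930, 565, 684 and 645 CPM. Both stress libraries lay between the 2 control libraries in each. The ratio of control replicate 1 to control replicate 2 was 3.4 at the median of the 119 members and ran from 2.47 to 6.42. The log2 profile across the block was alike in all libraries, with correlations of 0.994 to 0.998 over the 119 members, which share libraries and lie side by side.

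The block took 4.602% of all counts in shared regions in control replicate 1 (exact Clopper-Pearson 95% interval 4.589% to 4.614%), 1.407% in control replicate 2, and 1.757% and 1.663% in the stress libraries. Intervals of this kind cover counting error only, and cuts come in pairs from the ends of a fragment. Per kept nucleus these were 334, 69, 77.9 and 76.1 counts. The mean difference between stress and control was -1.29 percentage points, smaller than the gap between the control libraries (exact permutation p = 1, two-sided, n = 2 per group). The share was uneven among nuclei. The median nucleus had 1.24%, 0.47%, 0.724% and 0.67% of its counts in the block, while 34% of nuclei in control replicate 1 and 11.5% to 14.7% in the other libraries were above 5%. RNA of mitochondrial genes made up 2.43% of RNA counts in control replicate 1, 1.4% in control replicate 2, and 1.64% and 1.66% in the stress libraries, so it too was highest in control replicate 1 and lowest in control replicate 2. Its part in the result was not tested. Counts from the organelle and from the nuclear copy cannot be told apart where the sequences are identical.

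The fitted median log2 change of the block was -0.84 (quartiles -0.90 and -0.78), and 0 of 119 members passed the test, with 0 at an unadjusted p under 0.05. Without control replicate 1 the median was 0.28, and without control replicate 2 it was -1.47. Its direction therefore rested on which control library was kept.

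With the block set aside, the share of counts in the pericentromeres was nearly constant. The 1816 other members took 7.837% and 7.831% of counts outside organelle copies in the control libraries and 7.783% and 7.819% in the stress libraries. Both stress libraries lay below both control libraries, with a mean difference of -0.0335 percentage points (7.834% ± 0.00421 SD in control, 7.801% ± 0.0251 under stress, n = 2 each, exact permutation p = 0.333, the smallest that 2 against 2 allows). With the block included, the shares were 12.08% and 9.128% in control and 9.403% and 9.351% under stress, a difference of -1.23 points (exact permutation p = 1) that was 0.249 points without control replicate 1.

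**Figure D2:**
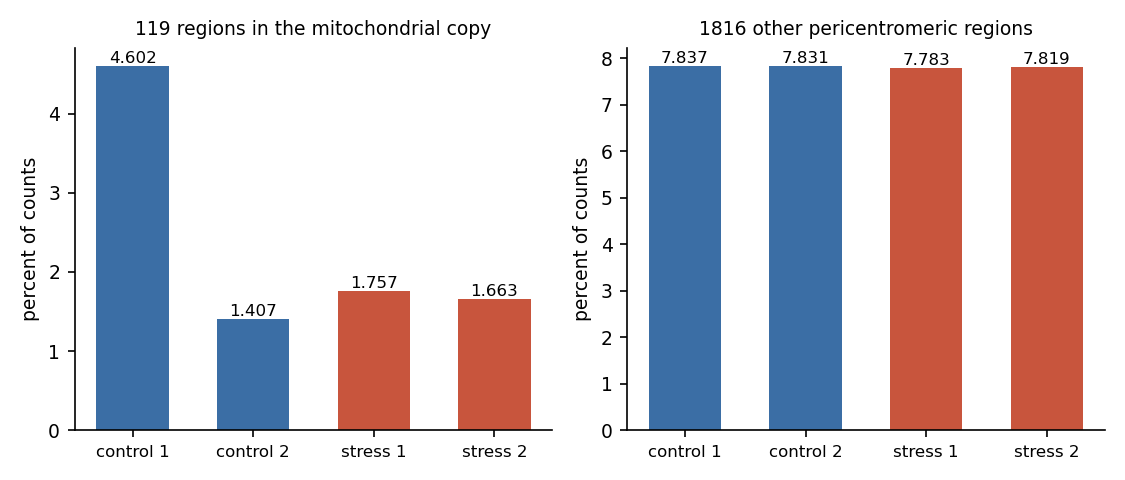
Percent of counts in the 119 regions of the mitochondrial copy, left, out of all shared regions, and in the 1816 other pericentromeric regions, right, out of shared regions outside organelle copies, with 1 bar per library. Control replicate 1 has 4.602% in the copy against 1.407% to 1.757% in the others, while the other regions take 7.783% to 7.837% in all 4.

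Of the 5 chromosomes, chromosomes 1 and 2 had both stress libraries below both control libraries. Of the counts on chromosome 2 outside the copy, its 310 other members took 8.587% and 8.637% in control and 8.398% and 8.489% under stress, a difference of -0.168 points. On chromosome 1 the 406 members took 6.74% and 6.73% in control and 6.685% and 6.714% under stress. Both had exact permutation p = 0.333, and the control and stress libraries of chromosomes 3, 4 and 5 overlapped. Nearer the gaps, the 298 members outside the copy in intervals narrowed at each end took 1.283% and 1.299% of counts in control and 1.256% and 1.253% under stress (difference -0.0359 points, exact permutation p = 0.333). Regions 1 to 1.5 Mb from the middle of the gap took 0.617% in both control libraries and 0.598% and 0.6% under stress, and those at 0.25 to 0.5 Mb took 0.251% and 0.254% in control and 0.244% in both stress libraries. Regions at 1.5 to 2 Mb took 1.5% in both control libraries and 1.47% and 1.46% under stress. At 0 to 0.25 Mb, nearest the middle of the gap, the conditions overlapped (0.049% and 0.0494% in control, 0.0488% and 0.0491% under stress). They also overlapped at 0.5 to 1 Mb and in each distance class from 2 to 6 Mb.

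Tests of single members were run with edgeR over all 18340 regions, of which 5, or 0.0273%, had an adjusted p under 0.05. Among the members 0 were higher and 1 was lower under stress, against 3 and 1 arm regions. At an unadjusted p under 0.05 there were 331 of 1816 members outside the copy, 18.2%, and 17.6% of arm regions. When organelle copies were left out, 1.31% of the 18220 remaining regions passed, and 21 members were higher and 9 lower. DESeq2 called 2.84% of all regions and 35 members higher and 20 lower. Libraries of the 2 conditions did not overlap in 421 members that were higher and 513 that were lower, or 23.2% and 28.2% of the 1816, beside 25.4% higher and 25.4% lower over all regions.

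Fitted changes of the 1816 members were small and centred just under 0. The median log2 change was -0.01 with quartiles of -0.10 and 0.08, and on the arms it was 0.00 with quartiles of -0.08 and 0.09. Chromosome 2 had the lowest median, -0.04, and there 49 members were higher and 111 lower without overlap between conditions, 15.8% and 35.8% of 310. Over all regions 25.4% were higher and 25.4% lower in this way. The members share the same 4 libraries, so these shares are a description. Chromosome 4 had a median of -0.03, and chromosomes 1, 3 and 5 were between -0.01 and 0.00. Members with a coding gene start had a median of -0.02 (n = 962), those without any gene start 0.00 (n = 726), those over a pseudogene -0.05 (n = 117), and those with most of their bases masked -0.06 (n = 29). At matched levels, the third of regions with the lowest counts had medians of -0.01 in the pericentromere and 0.02 on the arms, and the third with the highest counts -0.01 and -0.02.

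**Figure D3:**
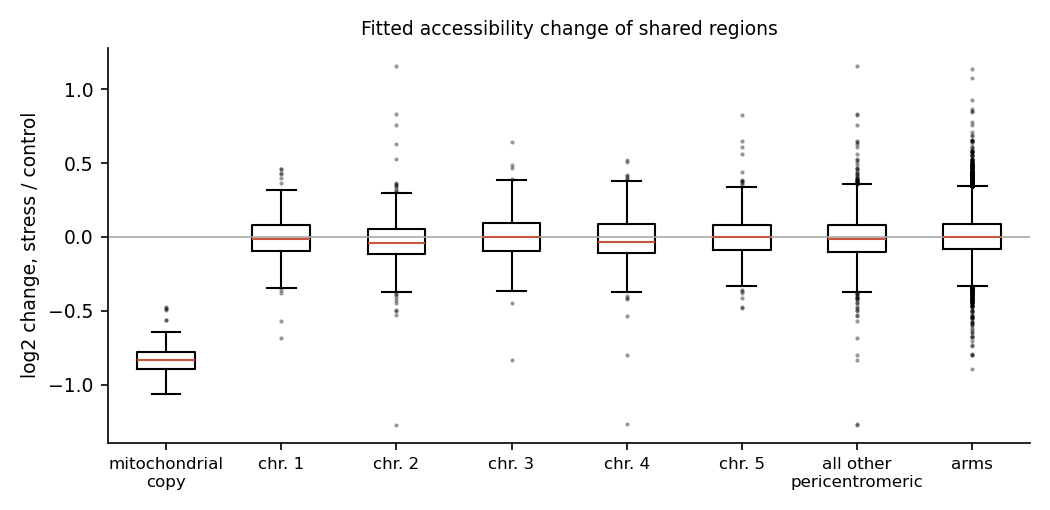
Fitted log2 change in accessibility, stress over control, for the 119 regions of the mitochondrial copy, the other pericentromeric regions by chromosome and together, and arm regions. Boxes span the quartiles with the median as a line, whiskers reach 1.5 times the box, and dots are regions beyond them. The copy sits near -0.84 and every other box spans 0.

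A single library could move many calls. A fit without 1 library leaves 1 in its group, so the spread in that fit comes from the other group alone. Without control replicate 1, 216 members were higher, 105 of them in the copy, where 6.52% of all regions were higher, and 103 members were lower beside 5.08% of all regions. Without control replicate 2, 205 members were lower, 119 of them in the copy, where 5.79% of all regions were lower, and 125 members were higher beside 7.54% of all regions. With stress replicate 1 or stress replicate 2 left out, 0 members passed.

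The length of the called peaks went into these counts. A library's count in a region came from that library's own peaks, and the summed width of those peaks, here called the covered length, differed between libraries in some regions. For 1779 of the 1816 members it agreed within 1.25 times across all 4 libraries, and their median log2 change was -0.01. In the other 37, or 2.04%, it did not. Over the 1816 members the change in covered length and the change in counts correlated at 0.415, and on the arms at 0.403. How much of that correlation rests on the 37 was not tested. When the covered length was taken into the fit as an offset, 0.131% of all regions passed, and again 0 members were higher and 1 lower, but it was a different member. Some of the following members are therefore given with both scales, and the rest in CPM only.

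The member called lower, chr4:6217056-6218586, covered the start of AT4G09890, which encodes a protein with a DUF3511 domain of unknown function. It had 35.4 and 32.2 CPM in control and 14.7 and 13.2 CPM under stress. The log2 change was -1.27 ± 0.11 (SE, edgeR adjusted p = 0.0483), and leaving out stress replicate 1 or 2 gave adjusted p of 0.114 and 0.196. Its covered length was 1406 and 927 bp in control and 616 and 579 bp under stress. Per covered kb it had 25.2 and 34.7 CPM in control and 23.9 and 22.8 under stress, and with covered length in the fit the log2 change was -0.37 (adjusted p = 0.268). The stress values stayed below the control values on both scales, by a smaller margin per covered kb. RNA of AT4G09890 was 11.1 and 16.2 CPM in control and 25.2 and 24 CPM under stress, which did not pass (log2 change 0.83 ± 0.21, adjusted p = 0.0912).

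A like shortening of the called peaks was seen at AtPOT1a, a telomere-binding protein that associates with telomerase. The member over its start, chr2:1890471-1891316, had 23.2 and 19.3 CPM in control and 8.81 and 8.56 CPM under stress (log2 change -1.27 ± 0.12, edgeR adjusted p = 0.054). Covered length was 828 and 840 bp in control and 420 and 410 bp under stress. Per covered kb it had 28 and 23 CPM in control and 21 and 20.9 under stress, a log2 change of -0.26 in that fit (adjusted p = 0.31). RNA of AtPOT1a was 23.1, 15.5, 15 and 15.6 CPM and overlapped between conditions. The gene overlaps AT2G05220, so its RNA count is uncertain.

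Members with a higher CPM under stress were of both kinds. At AT2G04090, a MATE family efflux transporter gene, the member chr2:1364366-1365305 had 22.3 and 22 CPM in control and 39.3 and 39.4 CPM under stress (log2 change 0.83 ± 0.08, edgeR adjusted p = 0.054). Its covered length was 555 and 553 bp in control and 919 and 940 bp under stress, and per covered kb it had 40.2, 39.8, 42.7 and 41.9 CPM, a log2 change of 0.08 (adjusted p = 0.632). At AT5G26200, a mitochondrial substrate carrier family gene, the member chr5:9156703-9157470 had 20.4 and 14.8 CPM in control and 31.1 and 29.7 CPM under stress (0.83 ± 0.15, adjusted p = 0.106). There covered length was 681 to 768 bp and the change per covered base was 0.72 (adjusted p = 0.12). At AT5G26320, which encodes a TRAF-like family protein, chr5:9237639-9238488 had 24.9 and 18.3 CPM in control and 31.9 and 34 CPM under stress (0.65 ± 0.15, adjusted p = 0.133), with a covered length of 826 to 846 bp. The conditions did not overlap in any of the 3 on the CPM scale, but these were named for the size of their change. Of all regions 25.4%, and of the 1816 members 23.2%, were higher under stress without overlap.

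Further members named for the size of their change were less certain. The member chr2:6189456-6190349, with no gene start, had 12.1 and 9 CPM in control and 17 and 17.6 CPM under stress (log2 change 0.76 ± 0.15, edgeR adjusted p = 0.11). The member over AT2G04115, chr2:1385328-1386694, had 3.42 CPM in control replicate 1, 24.6 in control replicate 2, and 33.7 and 37.3 under stress. Its log2 change of 1.16 (edgeR adjusted p = 0.329) became 0.53 when control replicate 1 was left out, and 3.37 when control replicate 2 was. Its covered length was 453 bp in control replicate 1 and 921 to 931 bp elsewhere. Among the members with the lowest fitted changes by the naming rule, chr2:3298961-3299869, chr2:3496923-3497826 and chr2:3495869-3496281 lay in the mitochondrial copy. The first had 189, 47.6, 57.1 and 53 CPM (log2 change -1.07 ± 0.54, adjusted p = 0.355, and 0.21 without control replicate 1).

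Beyond that rule, 3 members outside the copy were chosen after their values were seen. The member over a pseudogene, AT1G35130 (chr1:12846572-12847586), had 23.1 and 20.9 CPM in control and 13.4 and 13.8 CPM under stress (log2 change -0.69 ± 0.11, edgeR adjusted p = 0.0923). The member over the start of AT3G44006 (chr3:15795627-15796533) had 27.7 and 26.2 CPM in control and 10.3 and 20.1 CPM under stress, with covered lengths of 891, 884, 369 and 866 bp. Its log2 change was -0.83 ± 0.28 (edgeR adjusted p = 0.214), and -0.27 with covered length in the fit (edgeR adjusted p = 0.295). The member chr1:14303768-14304688, which lies just before the chromosome 1 gap and is 51.7% masked, had 19.8 and 15.1 CPM in control and 11.1 and 12.1 CPM under stress (-0.57 ± 0.15, adjusted p = 0.153) at a nearly equal covered length of 876 to 886 bp.

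The member that passed per covered base consisted of a tandem repeat. It was chr4:3950781-3951679, 98.4% masked and 30500 bp from the nearest coding gene start. Its bases repeated with a period of 178, the length of the Arabidopsis centromere satellite, and 91.1% equalled the base 178 positions on. A search of all shared regions for such repeats, at shifts of 100 to 400 bases and at least 60% identity, was made after this member was noticed. It found 2 more members. In chr3:13591459-13592466, which borders the chromosome 3 gap, the best period was again 178 (94.9%). In chr4:3953123-3954056 it was 356 (93.4%), and 92.3% of bases equalled the base 178 positions on. On the arms it found 2 regions with other periods, 116 and 150 bases, and 0 with 178. The units printed above show how close the 3 members are.

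All 3 satellite members had a lower CPM in both stress libraries than in either control library, as did 25.4% of all regions and 28.2% of the 1816 members, and the first of the 3 was noticed because it passed a test. The member that passed had 11.4 and 11.2 CPM in control and 6.04 and 6.89 CPM under stress, from 120, 263, 177 and 177 counts. Its log2 change was -0.80 ± 0.10 (edgeR adjusted p = 0.0633) and -0.79 per covered base (adjusted p = 0.0464). Its neighbour chr4:3953123-3954056 had 15.4 and 14.4 CPM in control and 12.3 and 8.05 CPM under stress (-0.54 ± 0.19, adjusted p = 0.234). The chromosome 3 member had 25.7 and 28.3 CPM in control and 23.1 and 19.7 CPM under stress (-0.34 ± 0.12, adjusted p = 0.224). Covered lengths of the first member were 868 to 896 bp in the 4 libraries. Other stretches of at least 200 bases at 95% identity or more were found 2, 3 and 12 times elsewhere in the 5 chromosomes, so counts from the copies cannot be told apart. Without stress replicate 1 or 2, the adjusted p of the first member was 0.474 and 0.345.

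**Figure D4:**
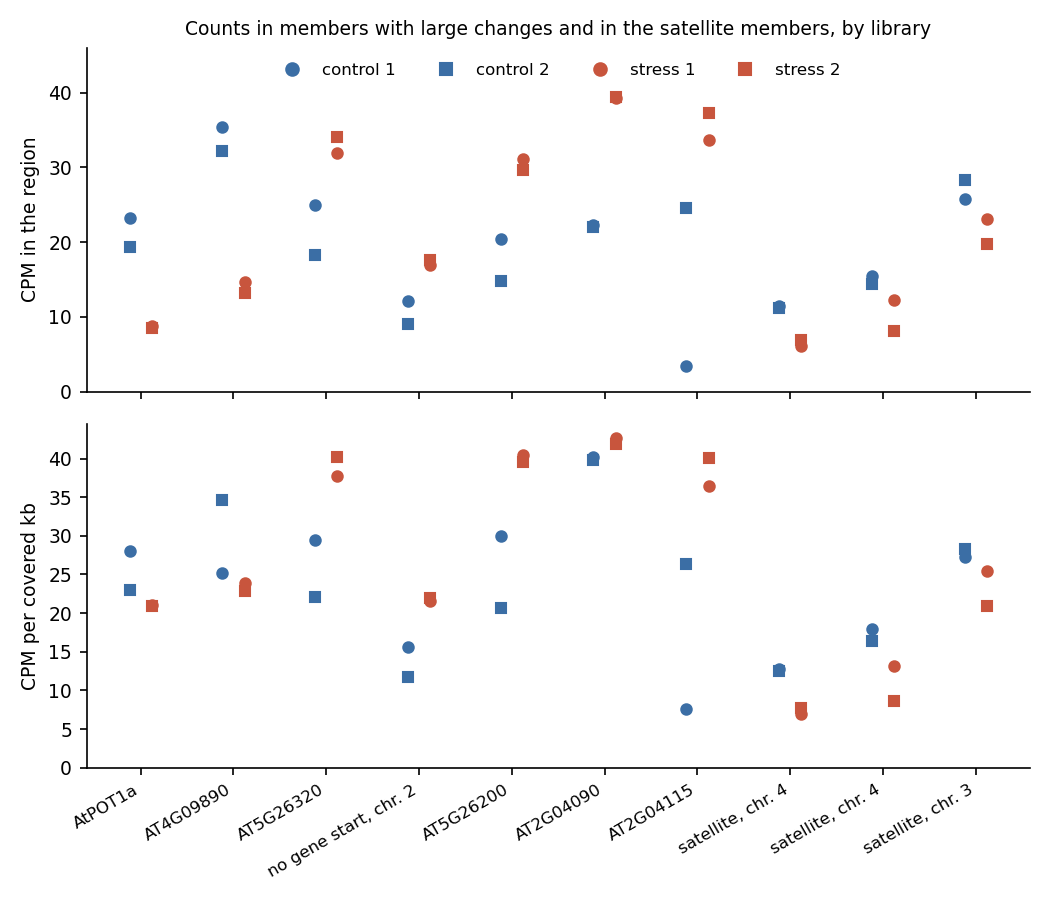
CPM in the region, above, and per kb of called peaks, below, for the members with the largest changes outside the mitochondrial copy and for the 3 satellite members, with 1 point per library (blue control, red stress). AT4G09890, AtPOT1a and AT2G04090 separate by condition above and lie closer together below, at 22.8 to 34.7, 20.9 to 28 and 39.8 to 42.7 CPM per covered kb. Both stress points of each satellite member are under its control points in the upper panel.

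A second repeated sequence was the ribosomal RNA locus of chromosome 3, where AT3G41768 encodes 18S and AT3G41979 5.8S ribosomal RNA. It had 4 members within 2000 bp, and these too were picked after their values were seen. The highest, chr3:14201306-14202056, had 221 and 226 CPM in control and 184 and 186 CPM under stress (log2 change -0.27 ± 0.09, edgeR adjusted p = 0.221), and at 272 CPM per kb it led all members outside the copy. Its GC content was 58.5%, against a median of 34.1%. The member chr3:14195536-14196452 had 135 and 129 CPM in control and 116 and 117 CPM under stress. The member over 5.8S, chr3:14199289-14200221, had 60.4 and 60.6 CPM in control and 56.3 and 49 CPM under stress. The fourth, chr3:14197062-14197790 at the 18S start, had 56.4, 44.6, 48.1 and 46.7 CPM and overlapped between conditions. Each had at least 1 further copy at 95% identity in the chromosomes.

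Other members with a high level had smaller differences. The member over the start of STOP1, a zinc finger transcription factor needed for tolerance of acid soil and aluminium, chr1:12549788-12550722, had 159 and 160 CPM in control and 155 and 149 CPM under stress (log2 change -0.07 ± 0.08, edgeR adjusted p = 0.672). The conditions overlapped at chr5:14913589-14914435, with 134 and 128 CPM in control and 134 and 130 under stress, and at chr5:14755431-14756314, with 123, 130, 132 and 127 CPM. The widest member, chr4:2126357-2128490 over the start of EMB2369, showed how peak calls could differ within a condition, with 24.6 and 45.7 CPM in control, 19.9 and 38.8 CPM under stress, and covered lengths of 860, 1727, 972 and 1760 bp.

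Among all 1816 members, libraries resembled each other more within stress than within control. The log2 levels of the stress libraries correlated at 0.986 over the 1816 members, those of the control libraries at 0.962, and pairs across conditions at 0.945 to 0.961. The SD of the log2 ratio was 0.114 between stress libraries and 0.185 between control libraries. These members share libraries and depth, and control replicate 1 had the fewest nuclei, so the values are a description.

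RNA of genes that start in the members was then compared between conditions. Of 1032 coding genes that start in members outside the copy, 927 were tested, and 25 were higher and 7 lower under stress (edgeR, adjusted p under 0.05 over 20341 genes). That was 2.7% and 0.755%, beside 3.5% and 1.26% of all genes. For the 11094 genes tested that start in arm regions, 311 were higher and 101 lower. Of 21 genes starting in the mitochondrial copy 9 were tested and 0 passed, and of 2331 coding genes in the intervals that start in no shared region 726 were tested, with 30 higher and 11 lower. The RNA of all 4210 genes in the intervals was 8.055% and 7.865% of RNA counts in control and 7.998% and 8.009% under stress (difference 0.0431 points, exact permutation p = 1).

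Among genes with a mean of at least 10 CPM, the largest RNA rises included a transporter, a brassinosteroid enzyme and a photosystem subunit. UMAMIT44, of the UMAMIT amino acid transporter family, had 8.56 and 7.19 CPM of RNA in control and 24 and 24.9 CPM under stress (log2 change 1.65 ± 0.14, edgeR adjusted p = 0.032). BR6OX2, which catalyses the last step of brassinolide synthesis, rose from 22.2 and 18.2 to 49.9 and 48.7 CPM (1.29 ± 0.14, adjusted p = 0.0329). PSBX, a small subunit of photosystem II, rose from 25.2 and 26.8 to 63.6 and 57.5 CPM. AT3G45210 and AT1G34040 rose by 1.39 and 1.26 on the log2 scale. The members over these 5 starts had log2 changes of 0.38 at UMAMIT44, 0.13 at BR6OX2, 0.00 at PSBX, 0.09 at AT3G45210 and 0.08 at AT1G34040 in accessibility, none past the test.

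Falls included a pair of neighbouring leucine-rich repeat genes. AT1G33610 fell from 31.9 and 42.9 to 13.5 and 14.2 CPM of RNA (log2 change -1.44 ± 0.18, edgeR adjusted p = 0.037). AT1G33590 fell from 49 and 56.4 to 24.6 and 21.9 CPM (-1.19 ± 0.13, adjusted p = 0.0341). CDF2, a DOF transcription factor of the photoperiod pathway, fell from 56.4 and 67.6 to 32.3 and 32.3 CPM, and ABCC13, an ABC transporter gene, from 21.6 and 19 to 10.4 and 10.6 CPM. AT2G15760 fell from 14.3 and 21 to 6.17 and 5.92 CPM. Their members had accessibility changes between -0.36 (ABCC13) and -0.02 (AT2G15760), with adjusted p of 0.201 or more. ABCC13 overlaps AT2G05405 and AT2G05415, so part of its RNA count may be theirs.

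Among genes that start in the regions named above for their accessibility, 3 passed the RNA test, and their members were named for the size of a rise. The others that were tested did not pass. Their RNA log2 changes included -0.48 at AT2G07629, -0.32 at AtPOT1a, -0.01 at AT5G30490, 0.14 at AT3G33530, 0.16 at AT4G05590 and 0.19 at EMB2369. At AT4G09890 RNA was higher (0.83) while its region was lower (-1.27). AT5G26200 had 0.639 and 0.417 CPM of RNA in control and 6.14 and 6.7 CPM under stress, from 5, 8, 203 and 189 counts (log2 change 3.70 ± 0.27, edgeR adjusted p = 0.032). AT5G26320 rose from 2.17 and 3.6 to 11.7 and 13.8 CPM (2.07 ± 0.27, adjusted p = 0.0378), and AT2G04090 from 4.21 and 3.07 to 13.5 and 13.9 CPM (1.95 ± 0.20, adjusted p = 0.032). In these 3, the CPM of both RNA and region was higher under stress. AT5G26200 overlaps AT5G26210, so part of its count may belong to that gene. STOP1 had 84.7 and 83.9 CPM of RNA in control and 111 and 115 under stress, which did not pass (adjusted p = 0.0937).

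Across loci the RNA and accessibility changes ran together only weakly. Over the 829 members with 1 tested coding start, Pearson's r was 0.268 and Spearman's rho 0.192. Over 8405 such arm regions they were 0.216 and 0.19. The points share the same nuclei and libraries, so these are descriptions. Of the 25 genes with higher RNA, 21 had a member with a fitted change above 0 (median 0.10), and of the 7 with lower RNA, 5 had one below 0 (median -0.04). On the arms this held for 187 of 246 genes with higher RNA (median 0.09) and 52 of 86 with lower RNA (median -0.03).

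**Figure D5:**
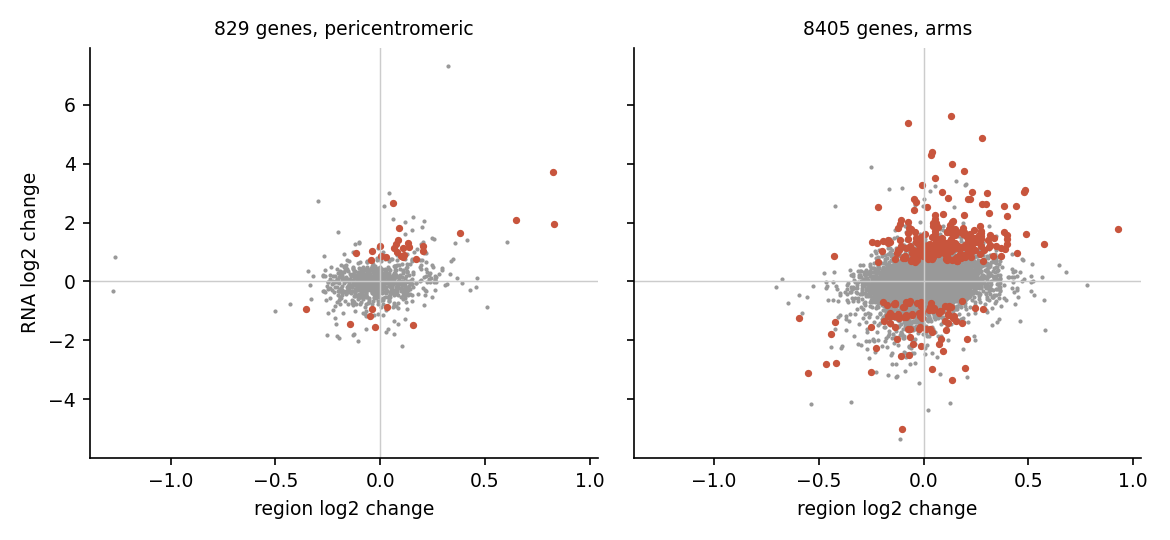
Fitted log2 change of RNA against that of the region over the gene start, for 829 pericentromeric genes, left, and 8405 arm genes, right, with genes past the RNA test in red. Most red points lie right of 0 when RNA is higher, and region changes span far less than RNA changes.

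Genes of heterochromatin were read from a fixed list of 29, all tested. The list covers genes that set marks of this chromatin and genes that remove them. It includes the DNA demethylase genes ROS1 and DME, and also CENH3, the centromere histone gene. Linker histone H1.3, the stress-inducible form of H1, was the 1 that rose, from 5.11 and 3.49 CPM of RNA to 20.8 and 21.2 CPM (log2 change 2.33 ± 0.21, edgeR adjusted p = 0.032), and 0 were lower by the test. The list median was -0.13, against -0.01 over all genes, and 18 of the 29 estimates were below 0. Conditions did not overlap in 6 genes that were higher and 13 that were lower, 20.7% and 44.8% of the list, beside 32.8% and 30.7% of all genes. The genes that follow were chosen after their values were seen. CMT3, the chromomethylase of CHG sites, had 32.7 and 110 CPM in control and 21.4 and 21.1 CPM under stress (-1.76 ± 0.59, adjusted p = 0.141), the control libraries being far apart. DDM1, the chromatin remodeller that lets methyltransferases into heterochromatin, had 16.9, 10.6, 7.23 and 7.48 CPM (adjusted p = 0.117), and VIM1, a methylated-DNA binding cofactor of MET1, had 47.5, 34.4, 26.7 and 24.8 CPM (adjusted p = 0.112). Of the 3 genes for H2A.W, the H2A variant of heterochromatin, HTA6 had 172 and 260 CPM in control and 155 and 146 under stress, and HTA7 had 88.8 and 116 in control and 72.5 and 71.3 under stress. HTA12 went the other way, with 8.05 and 9.95 CPM in control and 13.4 and 13.2 CPM under stress (log2 change 0.55 ± 0.16, adjusted p = 0.111). None of these passed, and the main H1 genes H1.1 and H1.2 had log2 changes of 0.35 and -0.13.

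The share of counts in the members differed little between nuclei with and without cell type markers. Nuclei with root hair markers had a higher share outside the copy than other nuclei in 4 of 4 libraries, by 0.0835 ± 0.0818 percentage points (SD). The exact sign-flip permutation p was the smallest that 4 libraries allow, and 0.375 after adjustment over 3 marker sets. Nuclei with endodermis markers had a mean difference of -0.0407 points and were lower in 2 of 4 libraries (exact permutation p = 0.5). For S phase histone markers, which 913 to 4451 nuclei per library carried and which therefore marked no narrow class, the difference was 0.0406 points (exact permutation p = 0.5). With 3 markers required of a nucleus the differences were 0.137 points for root hair, -0.0237 for endodermis and 0.0783 for S phase histones, the last then higher in 4 of 4 libraries. Other marker sets had fewer than 20 nuclei in at least 1 library.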

How the data were processed

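Nuclei of 4 libraries (control and stress, 2 each) were measured for RNA and accessible chromatin. The authors ran Cell Ranger ARC 2.0.2 on each library alone against TAIR10, and the deposited matrices hold raw counts, UMIs per gene and transposase cut sites per peak called in that library. Nuclei with RNA counts of 1000 to 25000 and peak counts of 1000 to 100000 were kept, 18386 in all, which gave 7982634 to 31717321 RNA counts per library. Doublets were not removed. Peaks were merged with bedtools 2.31.1, and each library's counts in a region were summed over its own peaks. Sums per library were tested with edgeR 4.0.16 in R 4.3.3 (quasi-likelihood, TMM, filterByExpr, Benjamini-Hochberg adjusted p under 0.05), and DESeq2 1.42.0 was an alternative. CPM is scaled by TMM, and the SE is the size of a log2 change over the square root of F. The RNA fit kept organelle genes. For shares, stress and control were set against each other in an exact permutation test (two-sided). Organelle copies were found with minimap2 2.31 (at least 200 bases at 90% identity), further copies with BLAST+ 2.17.0. RefSeq's TAIR10.1 gave genes and sequence, and 32548 of 32833 gene identifiers matched. Fits were tested on simulated counts.

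Regions were named where adjusted p was under 0.05, the mean at least 10 CPM and the conditions did not overlap, up to 5 per direction, filled by size where fewer passed. The 5 highest per kb, those beside the longest gaps, the widest and the narrowest were added. Genes followed the same rule, with those starting in named regions. Members, lists and rules were chosen with earlier results of these data known. Alternatives were other normalisations, DESeq2, no filter, a replicate term, each library left out, other limits on nuclei, other merging or intervals, and organelle copies left out. The fit with covered length, the tandem repeat search and the ribosomal RNA locus were added after seeing the data.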

Additional observations from a re-analysis of the deposited data

How the results depend on the processing

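The number of regions past the edgeR test, 5 in all and 1 among the members, changed with most settings. It was 8 and 3 with total-count scaling, 521 and 55 with DESeq2, 39 and 4 with limits on RNA counts alone, 43 and 4 with every deposited barcode, 39 and 5 with limits on halved peak counts, 11 and 1 with equal numbers of nuclei, 0 and 0 with a 100-bp overlap, 239 and 30 without organelle copies, and 24 and 1 per covered base. It ranged from 1 to 2444 and from 0 to 330 when a library was left out. Narrowed intervals left 0 members. With the replicate number as a block it was 8 and 2, and 28 genes starting in members passed instead of 32 and 1 heterochromatin gene as before. Deviations of same-numbered libraries correlated at 0.0439 for regions and 0.175 for RNA, so the numbers were not taken to pair the samples. The median change of members relative to the arms, -0.03, was -0.118 with narrowed intervals, -0.013 without organelle copies and -0.028 to -0.004 with a library left out. Outside the copy it was -0.01, and -0.018 with RNA limits, -0.017 with every barcode, -0.052 with narrowed intervals, -0.017 per covered base and -0.015 to -0.011 with a library left out. In the copy it ran from -1.468 to 0.283 with a library left out. The difference in share, -1.23 points, was -2.82 with RNA limits, -3.19 with every barcode and -2.7 to 0.249 with a library left out. Outside the copy, where it was -0.0335 points, it was -0.0578 with every barcode, -0.141 with at most 1 count per nucleus and region and -0.051 to -0.015 with a library left out. Of the 32 genes and 1 heterochromatin gene past the RNA test, the numbers were 103 and 2 with DESeq2, 89 and 2 with RNA limits, 146 and 6 with every barcode, and 0 to 505 and 0 to 16 with a library left out. For the genes they were also 63 without a filter and 59 with halved limits. The RNA share difference was -0.0515 to 0.139 points with a library left out. The sign turned for the RNA of AT4G05590 (-0.054 to 0.427 with a library left out), AT5G30490 (0.008 without a filter, 0.006 with RNA limits, -0.040 to 0.020 with a library left out), and AT4G04350 (-0.025 to 0.382 with a library left out), and for 10 of the 29 heterochromatin genes under some alternative. Among regions it turned for chr3:14197062-14197790 (0.002 with equal numbers of nuclei, -0.250 to 0.091 with a library left out), chr2:4005834-4006635 (0.002 with equal numbers), chr5:14913589-14914435 (-0.002 with every barcode, -0.024 per covered base, -0.022 to 0.042 with a library left out) and chr5:14755431-14756314 (-0.003 per covered base, -0.006 to 0.071 with a library left out). With a library left out it also turned for chr4:2906611-2907545 (-0.038 to 0.090), chr5:11611514-11612386 (-0.062 to 0.220) and chr4:2126357-2128490 (-0.853 to 0.244), and in the copy for chr2:3298961-3299869 (-1.775 to 0.213), chr2:3496923-3497826 (-1.667 to 0.192) and chr2:3495869-3496281 (-1.693 to 0.220), which passed as higher without control replicate 1. Among the values of named genes and regions under the alternatives, 258 and 413 kept their direction and their side of the threshold, 35 and 3 no longer passed, and 32 and 55 passed only there. The cause of these shifts was not tested, beyond the fewer samples or regions that a setting leaves. Control replicate 1 was the shallowest library, with 1480 nuclei, and the part of depth in the number of calls was not tested.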
